A study of Rattus norvegicus with 24 samples.

Results

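The extensor digitorum longus (EDL) is a fast hindlimb muscle that extends the toes, and its transcripts were compared here between rats (Rattus norvegicus) aged 18 months and rats aged 6 months. The arrays were chosen by their titles, which name the muscle, the age and the replicate: 4 arrays of EDL at 18 months and 4 of EDL at 6 months, 8 of 24 arrays in the series. The other 16 arrays held EDL at 30 months and the extraocular muscles (EOM), which move the eye, at the same 3 ages. Each array measured RNA combined from 4 animals, per the design text, which calls the 4 replicates of a group independent. The p-values therefore speak to variation among pools, not among single rats. The labels give no treatment, strain or sex. The comparison asks what differs in a limb muscle between young adult and middle-aged rats.

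Skeletal muscle is a tissue of several cell types. Its contractile fibres are wrapped in a matrix of fibrillar collagens, proteoglycans and adhesive glycoproteins, which is made mostly by fibroblasts, and collagen synthesis is known to be brisk while an animal grows. Fibres are fast or slow according to the isoforms of myosin, troponin and calcium pump they carry, and the EDL of the rat holds mainly fast fibres. Muscle also runs a circadian clock, in which activators (Bmal1 with its partner) drive repressors and output factors whose transcript levels swing over the day.

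Signals are in the arbitrary units of the Affymetrix software, with 1 value per probe set (a group of short probes against 1 transcript) and array, and levels of different probe sets are not comparable. The 8 arrays had median signals of 89.7 to 135.65 units and Spearman correlations with their own group of 0.908 to 0.916 at 18 months and 0.884 to 0.915 at 6 months. All carried a fast muscle profile: Myh4, the fastest myosin heavy chain, read 17561 to 23498 units at 18 months and 17005 to 21947 at 6 months, and Pvalb (parvalbumin), Ckm, Acta1 and Tnnt3 were also among bright transcripts. Slow Myh7 was present as well. Beta-actin signal from the 3′ end over that from the 5′ end, a ratio that is higher in degraded RNA, was 1.6 ± 0.401 at 18 months and 2.19 ± 1.07 at 6 months (SD, n = 4 each; exact permutation test, two-sided p = 0.429). A test of 4 against 4 arrays can miss a difference. Replicates 1 and 2 at 6 months had the highest ratios. Their ratios of the same kind for GAPDH were also the highest, 1.66 and 1.39, against 0.986 and 1.12 in replicates 3 and 4. At 18 months the GAPDH ratios were 1.04 to 1.16. Replicates 2 and 3 at 6 months stood apart in slow fibre signal, as described with those genes. Some results, though not every count, are also given without the one or the other pair of arrays.

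Most of the named transcripts that fell coded for collagen chains and other matrix proteins. Of 5741 probe sets tested, 16 passed an adjusted p of 0.05 (0.279 percent) with limma, a linear model with shared spread over all 24 arrays and Benjamini-Hochberg adjustment; 2 were higher and 14 lower at 18 months. The 12 of them with a single gene symbol stood for 9 genes. Of the 14 lower probe sets, 9 belonged to 6 matrix genes (Col1a1, Col1a2, Col3a1, Postn, Sparc and Mgp). Col1a1 gave 3 of these 9 and Sparc 2, although the brightest Sparc probe set read higher at 18 months and was not called. The collagen and other matrix lists held 22 and 25 of 3419 genes tested. In 15 of the 16 the 4 arrays of one age did not overlap the 4 of the other, and 15 differed by at least 2-fold. Both largely follow from choosing by p-value on the same arrays and are no separate support. Of all 5741 probe sets, 77 did not overlap with 18 months higher and 68 with 18 months lower. When each gene was read from its brightest probe set, 5 of 3419 genes passed (0.146 percent), all lower: Col1a2, Tbc1d2b, Col3a1, Postn and Mgp. At an unadjusted p of 0.05 the probe sets numbered 440, with 233 higher and 207 lower. EDL arrays varied more than EOM arrays (median within-group SD on the log2 scale 0.409 at 18 months and 0.415 at 6 months in EDL, against 0.315 and 0.329 in EOM), so the shared spread may make these p-values too small. With the 12 EDL arrays alone 1 probe set passed, Col1a2, at an adjusted p of 0.00444. There 275 fell under an unadjusted p of 0.05, and a share of about 0.05 would do so with no difference. Single arrays moved the count: it was 3 without replicate 1, 9 without replicate 2 and 6 without replicate 4 at 18 months, and 4, 10 and 80 without replicates 2, 3 and 4 at 6 months. Without replicates 1 and 2 at 6 months, left out for their actin ratio after seeing the data, 6 of the 16 passed. Col1a2 was among them (limma adjusted p = 0.00196). Tbc1d2b and Postn (both 0.0563), Hook1 (0.111) and Mgp (0.186) were not. All 16 kept their sign in each of these fits, which for the 15 without overlap could not have been otherwise.

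**Figure D1:**
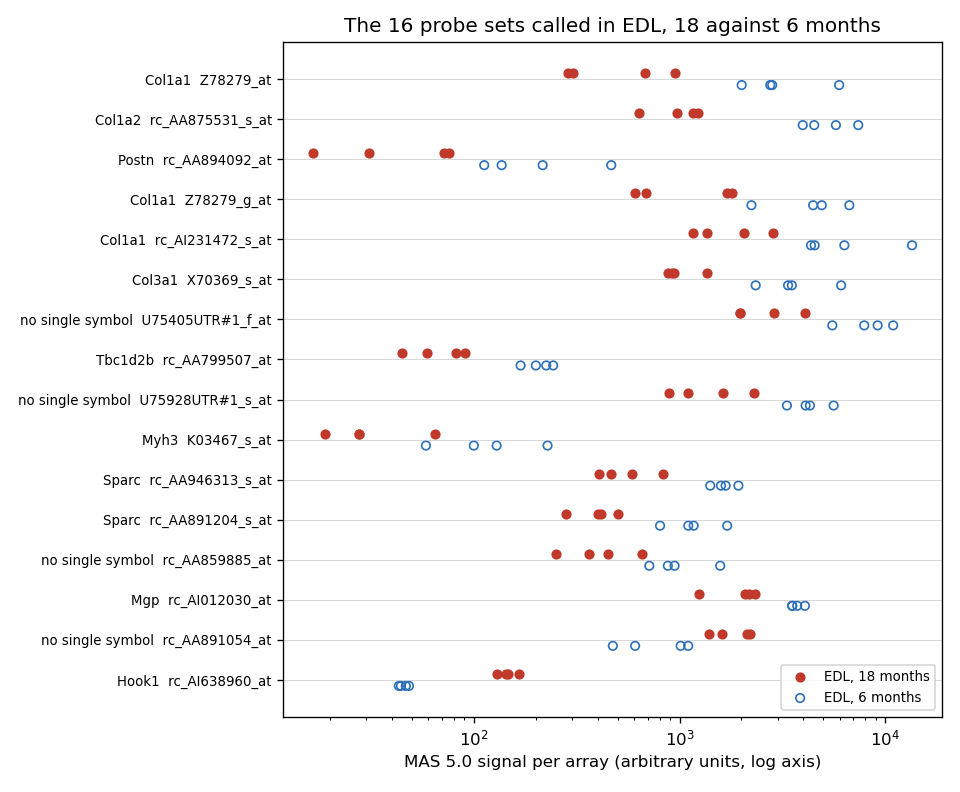
Signals of the 16 called probe sets (rows, gene symbol and probe set) on each EDL array, log axis in arbitrary units; filled red points are the 4 arrays at 18 months and open blue points the 4 at 6 months. In 15 of the 16 rows the colours do not overlap, the exception being the Myh3 probe set.

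Promoters are shown for Col1a2, Postn and Sparc, matrix genes with a probe set called lower, although the brightest Sparc probe set was not. Of the 9 named genes, 6 were found in the RefSeq promoter table of build GRCr8, and Col1a1, Col3a1 and Mgp were not. The 250 bases before the annotated start of Col1a2 (chr4:33518307-33518556, + strand), Postn (chr2:140677811-140678060, + strand) and Sparc (chr10:40038817-40039066, - strand) follow 5′ to 3′, with matches on either strand to TATAAA (the TATA box core) or CCAAT in capitals.

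Col1a2: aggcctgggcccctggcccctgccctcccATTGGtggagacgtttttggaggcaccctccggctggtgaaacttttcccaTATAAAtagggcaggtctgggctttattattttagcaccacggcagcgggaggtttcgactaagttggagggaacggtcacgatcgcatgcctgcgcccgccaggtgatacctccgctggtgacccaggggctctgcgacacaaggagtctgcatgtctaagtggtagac

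Postn: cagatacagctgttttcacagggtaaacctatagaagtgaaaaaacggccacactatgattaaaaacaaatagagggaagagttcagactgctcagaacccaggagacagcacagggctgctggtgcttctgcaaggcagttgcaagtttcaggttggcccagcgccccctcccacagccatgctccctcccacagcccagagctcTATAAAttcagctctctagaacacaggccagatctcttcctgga

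Sparc: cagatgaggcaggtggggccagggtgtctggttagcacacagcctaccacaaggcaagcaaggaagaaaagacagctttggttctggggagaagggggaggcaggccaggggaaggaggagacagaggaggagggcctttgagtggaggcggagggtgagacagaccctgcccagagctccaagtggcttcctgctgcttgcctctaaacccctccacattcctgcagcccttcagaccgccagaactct

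In this window Col1a2 held TATAAA once, beginning 170 bases before the start, and CCAAT once, on the other strand as ATTGG, 221 bases before it. Postn held TATAAA 44 bases before the start and no CCAAT, and Sparc held neither. Of 33469 promoters in the table read over the same window, 12.9 percent held TATAAA and 34 percent held CCAAT. A match is therefore a description and does not by itself show a site. Whether transcription begins at the annotated start was not examined, so the distances refer to that annotation only.

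Type I collagen, the main fibrillar collagen of muscle connective tissue, is built from the chains of Col1a1 and Col1a2. Col1a2 read 968, 634, 1229 and 1159 units in EDL at 18 months, against 3971, 5754, 4514 and 7388 at 6 months. The highest array at 18 months was below the lowest at 6 months. Its log2 difference, 18 minus 6 months, was -2.44 ± 0.29 (SE; limma adjusted p = 8.27e-05), and it passed in each of the 8 fits that left out 1 of these arrays. Within replicates 1 and 2 the difference was -2.61, and within replicates 3 and 4 it was -2.27 (adjusted p = 0.13 in that smaller fit).

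All 4 probe sets of Col1a1 had arrays that did not overlap, with log2 differences of -2.67 to -1.62, and 3 of the 4 passed. The one with the largest difference (Z78279_at) read 304, 288, 948 and 677 units at 18 months, against 2820.2, 2759.6, 2004 and 5969 at 6 months (limma adjusted p = 0.00923). The brightest, M27207mRNA_s_at, read 1318, 1645, 3309 and 3197 units at 18 months, against 4241, 7195, 6846 and 9867 at 6 months, and missed the threshold (limma adjusted p = 0.0789). Replicates 3 and 4 at 18 months were the higher pair in every Col1a1 probe set. Because another probe set of the gene passed, Col1a1, like Sparc, Hook1 and Myh3 below, was named after its values were seen.

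Col3a1 codes for type III collagen, which co-polymerises with type I in loose connective tissue. It read 875, 918, 1362 and 937 units at 18 months, against 2345, 3513, 6101 and 3368 at 6 months (log2 difference -1.84 ± 0.36, limma adjusted p = 0.0272). Its other probe set did not overlap either (log2 -1.48, adjusted p = 0.147). Any 1 of 5 arrays ended the call when left out (replicates 1, 2 and 4 at 18 months and 2 and 3 at 6 months; highest adjusted p 0.12), while the difference stayed between -2.05 and -1.59.

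Among the genes around them, Col5a2, a chain of the type V collagen that nucleates fibrils, read 310.0, 218, 409 and 177 units at 18 months, against 469.9, 769.8, 2118 and 637 at 6 months (log2 -1.66, limma adjusted p = 0.0904). Pcolce, which enhances cleavage of procollagen, read 208, 219.7, 324 and 413 units at 18 months, against 506, 496, 532 and 855 at 6 months (log2 -1.06, limma adjusted p = 0.147). In both genes the ages did not overlap. Lox, the enzyme that starts collagen cross-linking, had a log2 difference of -1.51 (adjusted p = 0.196) with overlap. The chaperone Serpinh1, which folds procollagen, had -0.78 (adjusted p = 0.35), and the hydroxylases P4ha1 and Plod2 had 0.21 and -0.25. Col10a1, a collagen of cartilage, was higher on all 4 arrays at 18 months, at 147 to 277 units against 97.2 to 134 at 6 months (adjusted p = 0.302).

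Over the list of collagens and collagen processing, 2 of 22 measured genes passed, both lower, against 0.146 percent of all genes. Arrays of the ages did not overlap, with 18 months lower, in 5 of the 22, a pattern found in 1.26 percent of all genes. At an unadjusted p of 0.05, 11 of the 22 were lower, against 3.57 percent of all genes. The list's median log2 difference was -0.61, beside 0.04 over all 3419 genes, and its summed signal was 8126 to 14152 units at 18 months, against 17721 to 31757 at 6 months. Without replicates 2 and 3 at 6 months the median was -0.33, and without replicates 1 and 2 at 6 months it was -0.80. The sum is weighted to bright probe sets. Its mean at 6 months was 26228 units, within which Col1a1, Col1a2 and Col3a1 averaged 7037, 5407 and 3832. The sums therefore largely restate these genes. In whole muscle, fewer matrix-making cells and less RNA per cell cannot be told apart.

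**Figure D2:**
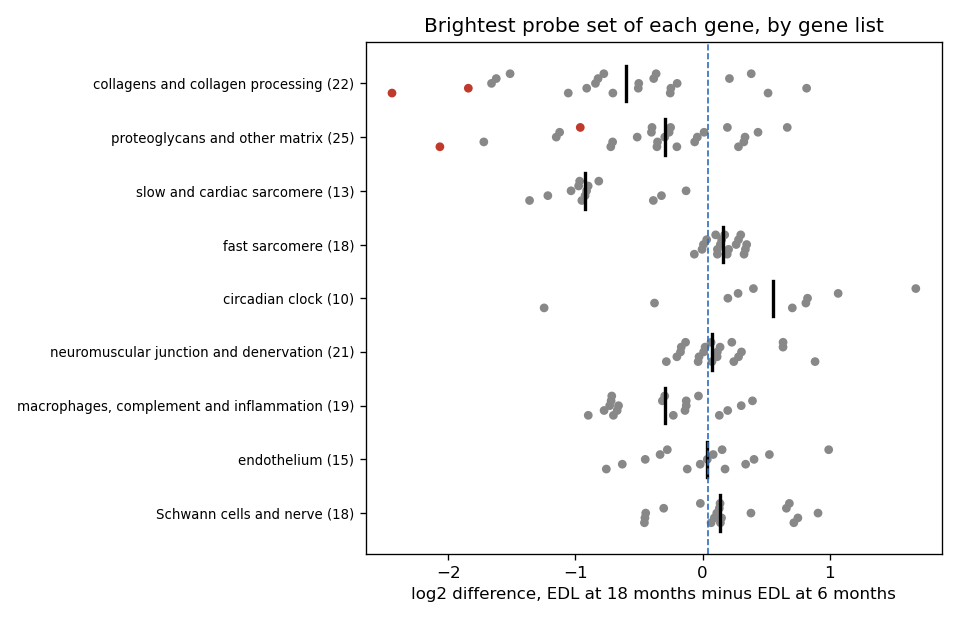
Log2 difference, EDL at 18 months minus EDL at 6 months, of the brightest probe set of each measured gene (points; red where called) in 9 gene lists, with the number of genes in brackets; black bars are list medians and the dashed line is the median of all genes, 0.04. The collagen list has its median at -0.61 and the slow and cardiac list at -0.92, but no gene of the slow and cardiac list was called.

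In the list of proteoglycans and other matrix, 2 of 25 measured genes passed, both lower (0.146 percent of all genes), and the median log2 difference was -0.30. Arrays did not overlap in 4 of the 25, Postn, Mgp, Lum and Fn1, all lower (1.26 percent of all genes). At an unadjusted p of 0.05, 7 of the 25 were lower (3.57 percent of all genes) and 1 was higher (3.8 percent). Its summed signal was 29752 to 45825 units at 18 months, against 35036 to 51577 at 6 months, so the sums overlapped.

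Postn (periostin), a matricellular protein of remodelling connective tissue, read 76.0, 31.0, 71.8 and 16.6 units at 18 months, against 112, 216, 466 and 137 at 6 months (log2 -2.07 ± 0.44, limma adjusted p = 0.0405). Replicate 4 at 18 months lay below the floor (the 25th percentile of its array, to which lower values were raised for the test), so the fold is understated. Mgp, matrix Gla protein, which inhibits calcification, read 2168, 1246, 2334 and 2082 units at 18 months, against 4069, 3523, 3533 and 3731 at 6 months (log2 -0.96 ± 0.21, limma adjusted p = 0.0495). Its 4 arrays at 6 months lay close together. Postn lost its call without any 1 of 5 arrays and Mgp without any 1 of 6, among them replicates 1, 2 and 4 at 18 months and replicates 2 and 3 at 6 months for both genes. Their highest adjusted p-values were 0.162 for Postn and 0.167 for Mgp.

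Lumican (Lum), which spaces collagen fibrils, read 195, 204, 60.9 and 208 units at 18 months, against 361, 371, 1255 and 354 at 6 months (log2 -1.72, limma adjusted p = 0.0706). Fibronectin (Fn1), an adhesive glycoprotein, read 823, 493, 1138 and 952 units at 18 months, against 1161, 1685, 3121 and 1624 at 6 months (log2 -1.12, limma adjusted p = 0.201). Replicate 3 at 6 months was the highest array for both. The bright proteoglycan Dcn (decorin) read 5786 to 12626 units at 18 months, against 9525 to 15027 at 6 months, and overlapped.

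Sparc (osteonectin), a collagen-binding matricellular protein, gave conflicting probe sets. One of the pair that passed read 463, 585, 831 and 407 units at 18 months, against 1933, 1675, 1409.8 and 1589.8 at 6 months (log2 -1.58, limma adjusted p = 0.0495). The other had log2 -1.56 (adjusted p = 0.0272), and a further one, without overlap, had -1.13 (adjusted p = 0.118). The brightest, however, read 16316, 13357, 15903 and 17565 units at 18 months, against 5649, 10416, 11005 and 14852 at 6 months (log2 0.67, adjusted p = 0.435). No direction is given for Sparc as a gene.

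Outside the matrix, Tbc1d2b, a protein of the family that switches off Rab GTPases, read 81.5, 90.5, 44.9 and 59.3 units at 18 months, against 243, 225, 200.2 and 169 at 6 months. No array overlapped, and the gene passed in each of the 8 fits that left out 1 of these arrays (log2 -1.64 ± 0.26, limma adjusted p = 0.00388, highest 0.0186). It lost its call in 8 of 27 alternative fits, among them that of the 12 EDL arrays alone (adjusted p = 0.11). Hook1, a linker of cargo to microtubules, was the named gene that rose: one probe set read 146, 166, 130.0 and 144 units at 18 months, against 43.2, 44.2, 48.4 and 46.7 at 6 months (log2 1.68 ± 0.32, limma adjusted p = 0.0265). Its other probe set did not overlap either (log2 1.25, adjusted p = 0.0941). Hook1 lost its call without any 1 of 4 arrays: replicates 1, 2 and 4 at 18 months and replicate 2 at 6 months (highest adjusted p 0.0853).

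Embryonic myosin heavy chain, Myh3, is made in developing and regenerating fibres. One of its 5 probe sets passed, reading 27.7, 27.6, 18.9 and 64.9 units at 18 months, against 58.5 to 228 units on the 4 arrays at 6 months (log2 -1.60, limma adjusted p = 0.0405). The ages overlapped, and 2 of the 18 month arrays lay below the floor. The brightest probe set read 759, 1055, 1296 and 910.4 units at 18 months, against 1439.8, 3287, 2663 and 1372 at 6 months, without overlap (log2 -1.05, adjusted p = 0.111). Of the other 3, M12098_s_at had a log2 difference of -2.0 with overlap (adjusted p = 0.121), and the remaining pair had -0.09 and 0.03. Myosin heavy chain genes are close in sequence, so probe sets may read more than 1 of them.

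A count without a test followed the size rule of the design text but left out its detection and difference calls. That rule asked for a change above 2 that held in all pairwise comparisons. Here the mean change had to exceed 2-fold, with all 16 pairs of arrays in the same direction. The count took 48 probe sets (0.836 percent), 16 higher and 32 lower. Of the 32 lower ones, 16 belonged to 10 genes of the collagen and other matrix lists, and none of the 16 higher ones did. The higher ones included both probe sets of Hook1 and of Dbp. The 16 matrix probe sets counted some genes more than once, Sparc among them, which is given no direction. They also held a Timp1 probe set with 4 arrays at the floor at 18 months and 1 array, at 952.9 units, far above the others at 6 months. Read from brightest probe sets, 5 of 22 collagen list genes and 3 of 25 other matrix genes were lower by this rule, against 18 of all 3419 genes. Leaving out 1 array gave 58 to 104 probe sets, since fewer arrays then have to agree; the count was 83 and 80 without replicates 2 and 3 at 18 months, and 74, 75 and 104 without replicates 1, 3 and 4 at 6 months.

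Of 10 clock genes measured, none was called in limma fitted without a replicate block, though a few stood apart. With the replicate number as a block, Dbp, Bhlhe41 and Nr1d2 passed (limma adjusted p = 0.0306, 0.0373 and 0.0203). Without it, 2 did not overlap with 18 months higher (against 1.2 percent of all genes), and 4 were higher at an unadjusted p of 0.05 (against 3.8 percent). The median log2 difference was 0.55, and the summed signal was 7999.5 to 9919 units at 18 months, against 5094 to 7046 at 6 months. Dbp, a clock output factor, read 2252, 1287, 1084 and 832 units at 18 months, against 422, 307, 513 and 377 at 6 months (log2 1.68 ± 0.40, limma adjusted p = 0.0771). Bhlhe41, a clock repressor, read 2087, 2384, 2471 and 2243 units at 18 months, against 1042, 1015, 864 and 1573 at 6 months (log2 1.07, limma adjusted p = 0.0941). In both genes every 18 month array was above every 6 month array. The repressors Nr1d1 and Nr1d2 had log2 differences of 0.83 and 0.81 (adjusted p = 0.415 and 0.22), and the activator Bmal1 had -1.25 (adjusted p = 0.493). In EOM the same comparison gave 1.07 for Dbp, 0.60 for Bhlhe41, 0.41 for Nr1d1 and -1.51 for Bmal1. No label states the time of day of sampling. Without replicates 1 and 2 at 6 months the list's median was 0.22, and without replicates 2 and 3 there it was 0.50.

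**Figure D3:**
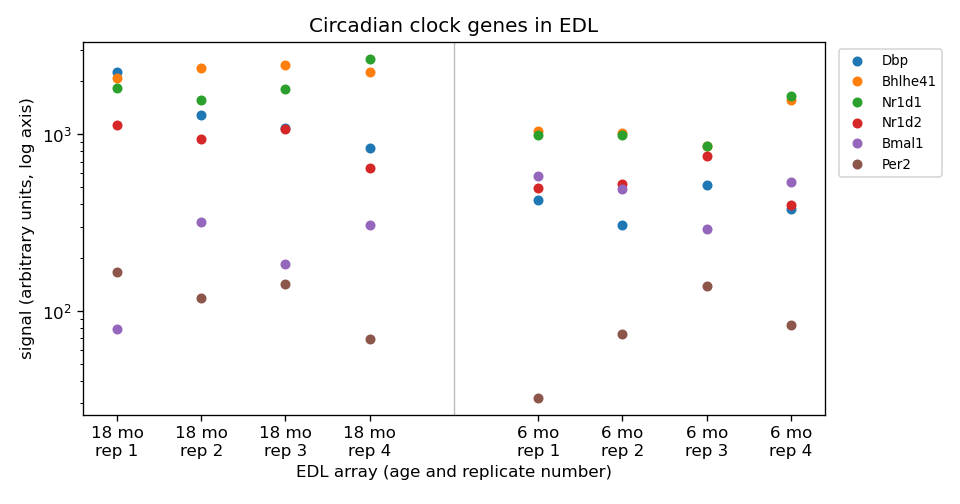
Signals of 6 circadian clock genes on each EDL array (log axis, arbitrary units), the 4 arrays at 18 months on the left and the 4 at 6 months on the right. Dbp and Bhlhe41 lie higher on every array at 18 months; the other genes overlap between the ages.

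None of the 13 measured slow and cardiac sarcomere genes was called, and the log2 difference was below 0 in each. The median log2 difference was -0.92, and 8 of the 13 were lower at an unadjusted p of 0.05, against 3.57 percent of all genes. Myh7, the slow myosin heavy chain, read 11284, 16034, 11179 and 4492 units at 18 months, against 14896, 32183, 30415 and 7818 at 6 months (log2 -0.91, limma adjusted p = 0.442). Myl2, the slow regulatory light chain, read 7809, 14756, 7952 and 5666 units at 18 months, against 14739, 23685, 20704 and 10479 at 6 months (log2 -0.97, limma adjusted p = 0.201). Atp2a2, the slow fibre calcium pump, read 3869, 8525, 2671 and 2806 units at 18 months, against 7775, 17024, 18143 and 4476 at 6 months (log2 -1.36, limma adjusted p = 0.111). In each, replicates 2 and 3 were the highest at 6 months and replicate 2 the highest at 18 months, and the ages overlapped. Ldhb, the lactate dehydrogenase subunit of slow and cardiac muscle, read 1757, 5076, 1417 and 1802 units at 18 months, against 5509, 7734, 8399.5 and 2369 at 6 months (log2 -1.30, adjusted p = 0.118). Without replicates 1 and 2 at 6 months the median of the slow list was -0.83, and without replicates 2 and 3 there it was -0.05. Replicates 2 and 3 were left out for their high slow signal after seeing the data, so a smaller difference was built in.

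**Figure D4:**
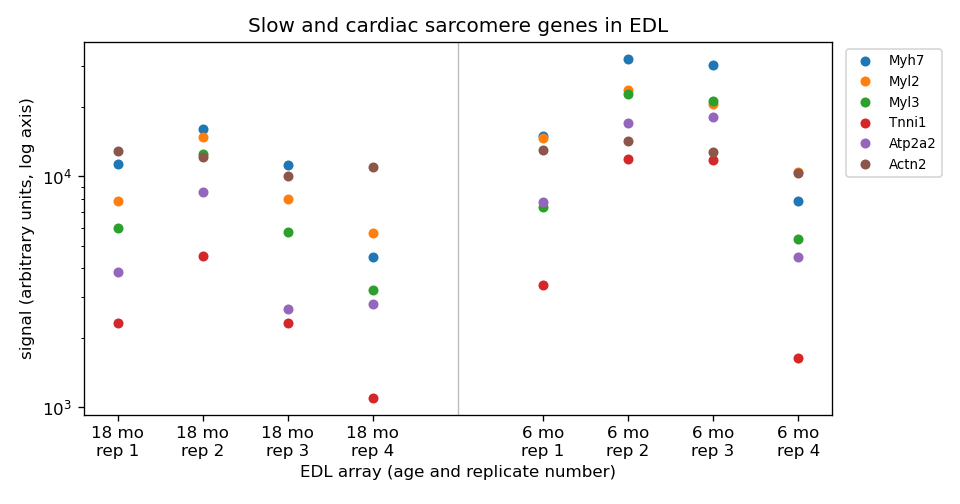
Signals of 6 slow and cardiac sarcomere genes on each EDL array (log axis, arbitrary units), 18 months on the left and 6 months on the right. Replicates 2 and 3 at 6 months and replicate 2 at 18 months are the high arrays for the slow genes, while Actn2, shared by both fibre types, stays between 10038 and 14231 units.

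Those same arrays differed in other lists. The summed slow signal was 34500 to 83129.6 units at 18 months, and 74209, 152581, 158863 and 48071 in replicates 1 to 4 at 6 months. The summed fast signal was 387338 to 508132 units at 18 months, against a lowest value of 285991 at 6 months, in replicate 3. The macrophage, complement and inflammation sum was 12299.9 to 14124 units at 18 months, against a highest value of 17194 at 6 months, again in replicate 3. That array was the highest of its age for Col3a1, Col5a2, Postn, Lum and Fn1, but not for Col1a1 or Col1a2. Without replicates 2 and 3 at 6 months, 6 probe sets passed, 5 of them among the 16, and Col1a2 kept its difference (log2 -2.49, adjusted p = 0.00466). The part of fibre mix or of other cells in the remaining matrix differences was not tested.

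Fast sarcomere genes showed no call among 18 in limma, with 1 gene, higher, at an unadjusted p of 0.05. Their median log2 difference was 0.16 (-0.05 without replicates 2 and 3 at 6 months, 0.23 without replicates 1 and 2 there). Of 28 lists, 26 held no called gene. These included oxidative phosphorylation (42 genes measured, median 0.02), ribosomal proteins and translation (47 genes, -0.03), ubiquitin and proteasome (36 genes, 0.02) and heat shock and protein folding (29 genes, -0.03). At an unadjusted p of 0.05 these 4 lists held 2, 0, 1 and 3 genes in that order. The markers of other cell types gave medians of -0.30 for macrophages, complement and inflammation (19 genes; 0.01 without replicates 2 and 3 at 6 months, -0.77 without replicates 1 and 2 there), 0.04 for endothelium (15), 0.13 for Schwann cells and nerve (18), -0.03 for fat cells (20) and 0.21 for T and B lymphocytes (8). None of them had a called member, and at an unadjusted p of 0.05 they held 1, 0, 2, 3 and 1 genes in that order. Of all 3419 genes only 5 were called (0.146 percent), so a list without a call is not shown to be unchanged. At the unadjusted p, 3.8 percent of all genes were higher and 3.57 percent lower.

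Genes of the nerve-muscle contact showed no call at 18 months in the fit without a replicate block. With the block Chrnb1, described below, passed (limma adjusted p = 0.0306). In the list of the neuromuscular junction and denervation, 0 of 21 genes passed in limma, 3 were higher and 0 lower at an unadjusted p of 0.05 (3.8 and 3.57 percent of all genes), and the summed signal was 7374 to 10977 units at 6 months, 8478 to 10461 at 18 and 18024 to 24865 at 30 months. Chrnb1, the beta subunit of the acetylcholine receptor, read 791, 1028, 959 and 769 units at 18 months, against 645, 487, 563 and 586 at 6 months, without overlap (log2 0.63 ± 0.15, limma adjusted p = 0.0706). Chrna1, its alpha subunit, read 332, 265, 1033 and 345 units at 6 months, 400.3, 463, 481 and 319 at 18, and 5468, 4867, 2691 and 2703 at 30 months. Gadd45a, a stress and denervation response gene, read 216, 289, 468 and 254 units at 6 months, 236, 433, 445 and 307 at 18, and 4511, 3165, 1672 and 2700.1 at 30 months. Myog, a myogenic factor that denervation raises, read 71.7, 567, 954 and 94.3 units at 6 months, 315, 555, 584 and 78.3 at 18, and 2682, 3123, 1766 and 1821 at 30 months. These genes were picked with their 30 month values known, and the 30 month levels are a description.

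The levels at 30 months are given beside the same 18 and 6 month arrays, as a description with no test. Col1a2 read 3971, 5754, 4514 and 7388 units at 6 months, 968, 634, 1229 and 1159 at 18, and 1156, 766, 1812 and 1704 at 30 months, so its oldest arrays were all below the youngest. Col3a1 read 795, 707, 1743 and 1023 units at 30 months, again below every 6 month array. Mgp read 2809.7, 2907, 3659.8 and 3329 units at 30 months, and Tbc1d2b read 136, 171, 241 and 139. Both were above every 18 month array.

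**Figure D5:**
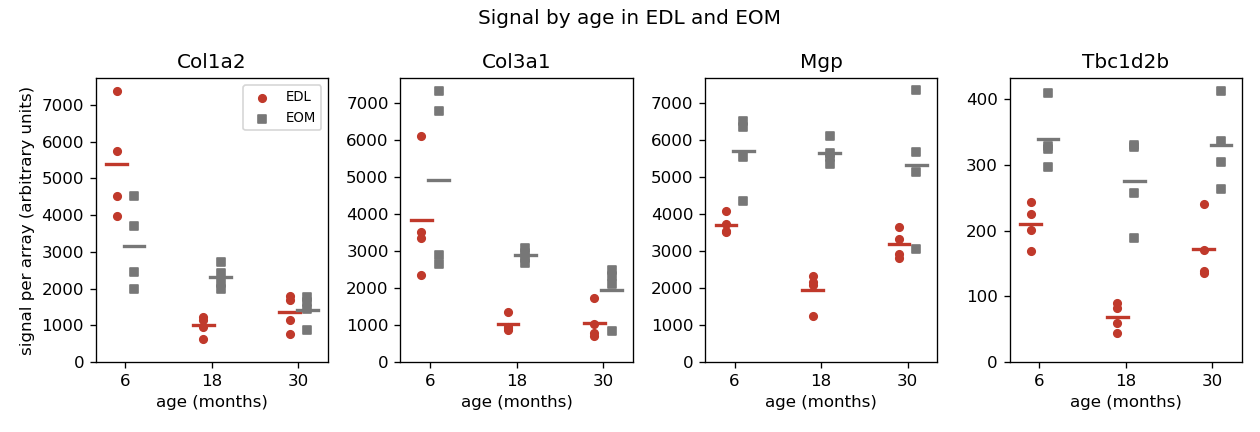
Signal per array (points, arbitrary units from 0) and group mean (bars, n = 4) by age of Col1a2, Col3a1, Mgp and Tbc1d2b in EDL (red circles) and EOM (grey squares). Col1a2 and Col3a1 in EDL stay low at 30 months, while Mgp and Tbc1d2b lie higher there than at 18 months.

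The same ages in EOM gave smaller differences for these genes. Other collagens were also lower in EOM at 18 months, though not called. Every Col1a1 probe set was lower there, at log2 -0.85 to -0.62, and Col5a2 had -0.62. Over all 5741 probe sets, limma called 10 in EOM between these ages, 9 of them lower. In EOM, Col1a2 read 1994, 2424, 2727 and 2157 units at 18 months, against 1999, 4509, 2453 and 3707 at 6 months (log2 -0.38, limma adjusted p = 0.999). Col3a1 read 2811, 2952, 3096 and 2688 units in EOM at 18 months, against 2892, 7339, 2655 and 6787 at 6 months, with replicates 2 and 4 at 6 months high (log2 -0.62). The test of the difference between the muscles, EDL change minus EOM change, called 0 of 5741 probe sets in limma (0 percent), with 253 at an unadjusted p of 0.05. Those 253 are no evidence of a difference, since a share of about 0.05 would fall there with none. The smallest adjusted p was 0.123, for Col1a2, with a log2 difference between the changes of -2.06 ± 0.41. For Mgp it was -0.97 ± 0.30 (adjusted p = 0.621). No matrix gene is shown to differ between the muscles by this test.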

How the data were processed

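The authors' deposited values are linear intensities from Affymetrix Rat Genome U34 arrays, computed with Microarray Suite 5.0, per the submitters' processing notes and the design text. Although the labels mention Cy dyes, cRNA was labelled with biotin per the design text, and arrays were read as 1-colour. Trimmed means (2 percent off each end) were 500.7 to 501.1 on all 24 arrays, so values were taken as scaled between arrays by the authors.

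Of 8799 probe sets, 59 controls were removed. Of the 8740 others, 7006 had 1 symbol in the platform annotation, 308 several and 1426 none; only single symbols were used, and 6985 matched a RefSeq gene of GRCr8. Values below an array's 25th percentile (21.4 to 34.5 units) were raised to it before log2 was taken, which understates changes of dim transcripts. A probe set was tested if, in some group, 3 or more of the 4 arrays had it above the 40th percentile of that array, which was 53.8 to 83.8 units. In all 5741 were tested and 2999 were not.

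A means model of the 6 groups over all 24 arrays, with 18 residual degrees of freedom, was fitted with limma 3.58.1 (lmFit, eBayes with intensity trend) in R 4.3.3 and tested on simulated data. P-values are two-sided with Benjamini-Hochberg adjustment over all probe sets tested, called under 0.05. Log2 differences are 18 minus 6 months, and the muscle test is the EDL change minus the EOM change. A gene is read from its brightest probe set. Named genes were the up to 14 called each way with arrays not overlapping and the brighter mean above the median of all values, 116.6 units, which gave 5; called members of the 28 lists; and the brightest list members not called, with others named after their values were seen. The members, lists and tests were chosen with earlier results of these data known. Alternatives covered the floor, normalisation, filter, trend, array weights, replicate block, arrays fitted and each array left out. Detection calls were not used here. With 4 arrays a group, precision is limited by their number.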

Additional observations from a re-analysis of the deposited data

Results flagged for a closer look

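Col3a1 in EDL at 18 months had 1 array apart from the rest of its group: replicate 3 read 1361.6 units, against 875.3 to 937 in the other 3. Its gap to the nearest array exceeded Dixon's 95% critical value for 4 samples. Of 32 groups of arrays examined for the 16 called probe sets, this was the 1 that did, and chance gives about 1 in 20. Without that replicate Col3a1 kept its call.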

How the results depend on the processing

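The 16 called probe sets became 5 without the intensity trend, 4 with array weights, 1 with the 12 or the 8 EDL arrays alone or with weights on the 12, 47 with replicates 1 and 2 only, 0 with replicates 3 and 4 only (limma, where Col1a2 had an adjusted p of 0.13), and 6 without replicates 2 and 3 at 6 months; the last, like the weights on the 12 arrays, was chosen after seeing the data. Leaving out 1 array gave 3 to 80. With the replicate number as a block 35 were called, and 10 in the 12 EDL arrays. Under the block 8 list genes passed that did not without it, among them Dbp (adjusted p = 0.0306), Bhlhe41 (0.0373), Nr1d2 (0.0203), Chrnb1 (0.0306), Col5a2 (0.0373) and Col1a1's brightest probe set (0.00452). No source says that a number marks shared animals, and same-numbered EDL arrays at 18 and 6 months correlated in their deviations by 0.0961, 0.186, 0.354 and 0.455, so not all were over 0.1 and the block was not used. Against all 5 other groups the 20 correlations were above 0 (0.0106 to 0.455), replicates 3 and 4 matched their own number best in all 5 and replicate 2 in 2 of them, and replicate 3 had the lowest fast sarcomere sum in all 6 groups, which is a hint of shared numbers from the data and not the design. The 48 probe sets of the size rule became 93 at 1.5-fold, 58 to 104 with 1 array left out, 127 without replicates 2 and 3 and 146 without replicates 1 and 2 at 6 months. The test between muscles, with 0 called, gave 1 under quantile normalisation, median centring, no trend or the block, 3 with array weights and 0 to 3 with 1 array left out. The causes were not tested, beyond the smaller number of arrays where arrays were left out. All 16 probe sets kept their sign wherever they were tested, 1 of them not being tested under the stricter filter. For the 15 without overlap between the ages, leaving out arrays could not reverse the sign.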

Other observations

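A few genes outside the matrix and clock lists had arrays that did not overlap between the ages while missing the limma threshold. They were chosen after their values were seen. Of all 3419 genes, 41 did not overlap with 18 months higher (1.2 percent) and 43 with 18 months lower (1.26 percent). The genes below are picks from these. Ucp3, a mitochondrial uncoupling protein of muscle, read 1464, 1609, 1552 and 2610.1 units in EDL at 18 months, against 1097, 401, 1049.6 and 1132 at 6 months (log2 1.05, limma adjusted p = 0.248), and its dimmer probe set did not overlap either (log2 1.20, adjusted p = 0.244). Both probe sets of Grina stood apart, the brighter at 4165, 3205, 4026 and 5446 units at 18 months, against 1214, 1585, 2875 and 3079 at 6 months (log2 1.03, limma adjusted p = 0.0904). Slc4a3, an anion exchanger of excitable tissues, read 319, 229, 261 and 338 units at 18 months, against 339, 812, 1323 and 456 at 6 months (log2 -1.17, limma adjusted p = 0.0706), where replicate 4 at 18 months and replicate 1 at 6 months lay next to each other. Pmp22, a myelin protein that fibroblasts also make, read 1062, 917, 961 and 778 units at 18 months, against 1317, 1169, 1404 and 1198 at 6 months (log2 -0.46, limma adjusted p = 0.478). Id3, an inhibitor of myogenic factors, read 336, 461, 339 and 416 units at 18 months, against 684, 683, 527 and 471 at 6 months (log2 -0.60, limma adjusted p = 0.337).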
